A study of Mus musculus with 9 samples.

Results

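The 10 genes described here encode the MHC class II presentation machinery of the mouse: the chains of the class II molecules (H2-Aa, H2-Ab1 and H2-Eb1), the invariant chain (Cd74), the chains of the peptide-exchange molecule H2-M (H2-DMa, H2-DMb1 and H2-DMb2) and of its inhibitor H2-O (H2-Oa and H2-Ob), and the transactivator of the whole group (Ciita). They were taken by gene name from a table of 55487 genes, and all 10 were found there and reached 1 TPM in at least 3 libraries, as 15536 genes of the table did. The RNA-seq data came from CD4+ T cells that were isolated by negative selection from spleens of wild-type (Trail-r+/+) C57BL/6 mice and cultured in serum-containing medium, in 3 groups of 3 libraries. The first group stayed in medium, with the time in culture not given. The second was stimulated for 24 h with Abs against CD3, used at 3 µg/ml, together with Abs against CD28, used at 2 µg/ml, which act on the TCR and on a costimulatory receptor. The last group received the same Abs with TRAIL (10 µg/ml), a member of the tumor necrosis factor family which the study tested as an inhibitor of T cell activation, for the same 24 h. Cells given TRAIL without Abs and TRAIL-R-knockout cells were not analysed here.

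MHC class II molecules display peptides from endocytosed proteins to CD4+ T cells. In the mouse they are made by B cells, dendritic cells and macrophages, whereas T cells are known to make little of them. The alpha and beta chains assemble with the invariant chain, which blocks the groove and guides the complex into endosomes, where proteases degrade it and H2-M then swaps the last invariant chain fragment for a peptide. H2-O restrains H2-M and is known mainly from B cells. CIITA does not bind DNA itself and is recruited by factors that occupy the X and Y boxes of class II promoters.

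These conserved boxes are shown first, because they are the feature that the class II promoters are known to share. RefSeq promoter windows of 300 bases (250 before and 50 after a transcription start, GRCm38.p6) were matched for 7 of the 10 genes, in 8 windows, 2 of them for H2-DMa. Cd74, Ciita and H2-Ab1 had no entry. The windows were searched on both strands for the letters AGNAAC, from the X box, for ATTGG, from the Y box, and for its longer form TGATTGG, which contains ATTGG and was chosen with the sequences in view. The stretches below are 65 bases long and run 5′ to 3′ on the strand of the gene, with TGATTGG in capitals and AGNAAC in capitals where it comes before. The H2-DMa stretch, from the first of its windows, covers about the same distance before the start and holds none of these letters.
H2-Ob (chr17:34238801-34238865, + strand): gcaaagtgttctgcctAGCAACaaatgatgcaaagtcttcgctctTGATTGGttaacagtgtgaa
H2-Oa (chr17:34092289-34092353, + strand): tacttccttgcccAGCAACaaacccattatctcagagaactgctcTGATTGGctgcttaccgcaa
H2-Eb1 (chr17:34305761-34305825, + strand): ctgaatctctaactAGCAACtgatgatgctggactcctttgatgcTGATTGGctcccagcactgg
H2-DMb2 (chr17:34145112-34145176, + strand): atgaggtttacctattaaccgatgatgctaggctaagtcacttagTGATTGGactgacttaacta
H2-Aa (chr17:34287854-34287918, - strand): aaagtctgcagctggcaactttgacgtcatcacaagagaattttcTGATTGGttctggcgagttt
H2-DMa (chr17:34122727-34122791, + strand): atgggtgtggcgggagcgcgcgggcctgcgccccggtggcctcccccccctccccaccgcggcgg

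TGATTGG was found in the windows of 6 genes (H2-Oa, H2-Ob, H2-Aa, H2-Eb1, H2-DMb1 and H2-DMb2), 45 to 92 bases before the RefSeq start. Of all 32851 windows, 7.82% held it on either strand, while the shorter ATTGG was in 37.4% and AGNAAC in 48.1%. AGNAAC lay upstream of ATTGG on the gene's strand in 4 genes, with 34 bases from start to start in H2-Oa and in H2-DMb1, 31 in H2-Ob and 33 in H2-Eb1. Such a pair, with 15 to 45 bases from start to start, was present in 1.67% of all windows. Of the H2-DMa windows, the first had a GC content of 73.0% and none of these letters, and the second held AGNAAC and ATTGG but no pair. In the GENCODE M21 annotation of GRCm38, the H2-Ob, H2-Aa and H2-Eb1 stretches lie 37, 30 and 41 bases before their genes. The last 14 bases of the H2-Oa stretch fall in its first exon. The H2-DMb2 and H2-DMa stretches lie within the annotated gene spans but in no exon. The H2-DMb1 pair, which is not printed, lies in a stretch that starts 11 bases past the annotated gene start and falls with all 65 bases in an exon of a coding transcript. A match of letters describes a window and does not show that a factor binds there, and the data hold no measurement of binding.

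The values are TPM, a transcript abundance in which reads are divided by transcript length and each library is scaled to the same total, so that levels of different genes can be compared. TPM keeps no read totals, and the depth behind the values is unknown. Between 13691 and 14909 genes per library reached 1 TPM, and libraries of the same group had correlations of 0.983 to 0.993 over genes. Such correlations do not show whether the libraries are independent replicates. The labels give no batch and do not say whether the replicates came from separate mice or cultures, so p-values measure only the spread between these libraries. T cell markers were present in every library: all 10 that were examined passed the filter, and their summed level was 4106 to 4523 TPM in medium, 3965 to 4202 TPM after stimulation and 4064 to 4523 TPM with TRAIL. Markers of other cells were present as well, and in medium the sum of 10 B cell markers was 2404 to 2514 TPM and that of 10 macrophage and monocyte markers 1682 to 1839 TPM. A lower level of a transcript in such bulk RNA cannot be assigned, since fewer cells of a type and less RNA per cell cannot be told apart. Because each library is scaled to the same total, more RNA from other cells would also lower its TPM.

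The class II genes were abundant in medium. After anti-CD3/CD28 stimulation 9 of the 10 fell to a small part of that level, H2-DMa being the exception, and with TRAIL these 9 stood in between. The summed level of the 10 genes was 6890 ± 511 TPM (SD, n = 3) in medium, 991 ± 72.2 TPM in stimulated cells, which is 14.4% of the medium mean, and 3894 ± 150 TPM in TRAIL-treated cells, or 56.5%. The genes were picked with these values known, so the values are given as a description with no p-values, and the calls counted below, from the fit over all genes, are no independent evidence. Differences are given as log2 fold changes of TPM + 1, with standard errors from a limma fit of all 9 libraries. In that fit a gene is called when its Benjamini-Hochberg adjusted p is under 0.05 and its log2 fold change is at least 1 in size. The comparisons share libraries, so the fall with stimulation and the higher level with TRAIL both rest on the same 3 stimulated libraries.

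**Figure D1:**
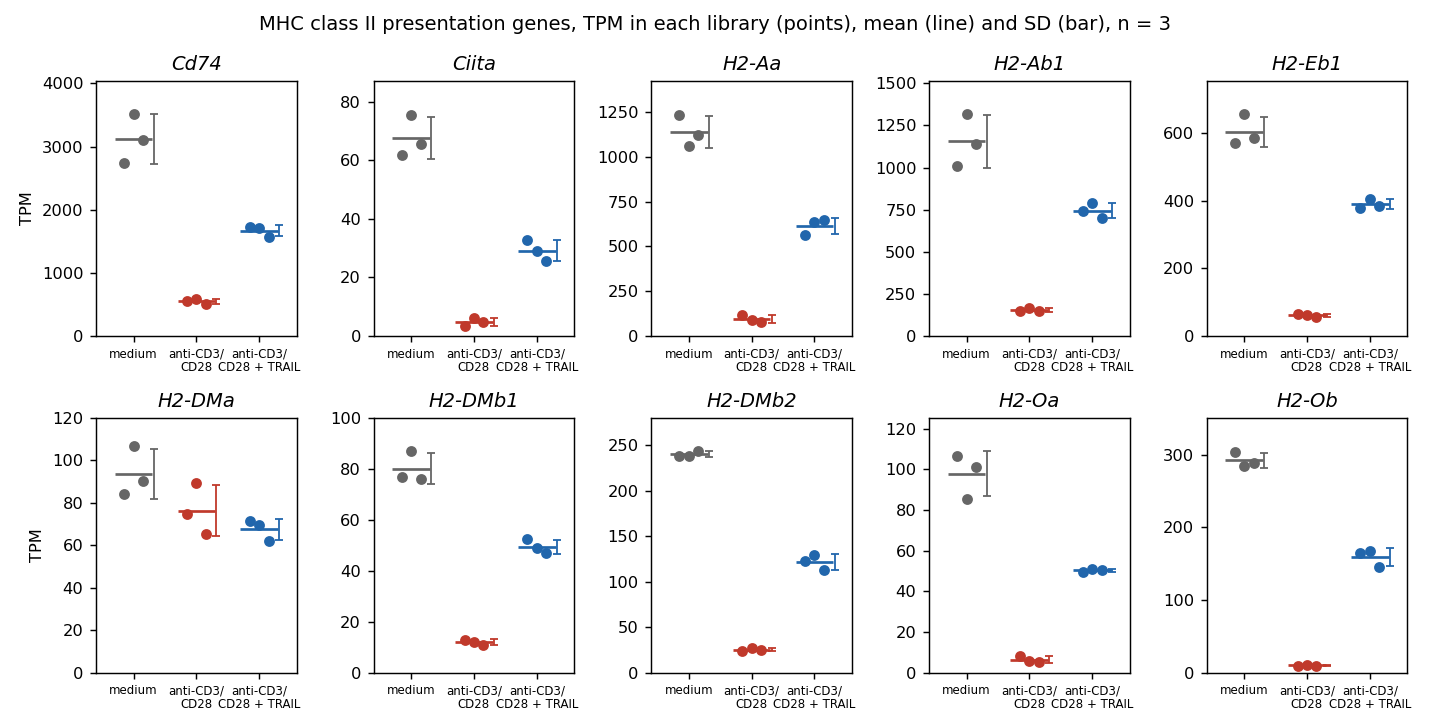
TPM of the 10 class II genes in each library (points), with the mean (line) and SD (bar) of the 3 libraries per group: medium, anti-CD3/CD28-stimulated, and stimulated with TRAIL. Except for H2-DMa, the stimulated libraries lie lowest and the TRAIL-treated libraries lie between them and medium, with no overlap.

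Among the chains that form the class II molecule, H2-Aa (alpha chain of I-A, ENSMUSG00000036594, chr17:34282744-34287823) was at 1237, 1062 and 1123 TPM in medium, at 119, 86.9 and 79.7 TPM after stimulation, and at 564, 635 and 645 TPM with TRAIL. The 3 groups did not overlap. Its log2 fold change was -3.59 (SE 0.14) after stimulation and -0.89 with TRAIL, each against medium. The partner chain H2-Ab1 (ENSMUSG00000073421, chr17:34257689-34269419) was at 1008, 1317 and 1140 TPM in medium, at 146, 167 and 150.3 TPM after stimulation, and at 743, 787 and 699 TPM with TRAIL. These ranges did not overlap either, and the stimulated mean was 13.4% of the medium mean against 8.35% for H2-Aa. In medium the ranges of the 2 chains overlapped, and after stimulation every H2-Ab1 value was above every H2-Aa value. H2-Eb1 (beta chain of I-E, ENSMUSG00000060586, chr17:34305867-34316674) was at 571, 656 and 585 TPM in medium, at 65.2, 62.3 and 55.2 TPM after stimulation, and at 380.3, 406 and 385 TPM with TRAIL. It followed the I-A chains at a lower level, with 10.1% of the medium mean after stimulation and 64.7% with TRAIL. H2-Ea, whose product would pair with it, is defective in C57BL/6 mice and was listed at 0.195 TPM or less in medium and at the lowest value of the table, 0.0001 TPM, in the other libraries.

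Cd74 (ENSMUSG00000024610, chr18:60803848-60812652), the invariant chain, was the most abundant of the 10 genes in every group. It was at 2732, 3520 and 3102 TPM in medium, at 556, 578 and 505 TPM after stimulation, and at 1726, 1712 and 1566 TPM with TRAIL. The groups did not overlap, but the fall was the smallest among the 9 genes called lower, with 17.5% of the medium mean left and a log2 fold change of -2.51 (SE 0.11). Its ratio to the sum of H2-Aa, H2-Ab1 and H2-Eb1 was 1.07 ± 0.0957 (SD, n = 3) in medium, 1.76 ± 0.0720 in stimulated and 0.955 ± 0.0609 in TRAIL-treated cells. Cd74 thus made up a larger share of the class II transcripts after stimulation, from 45.1% of the summed level in medium to 55.1%, and 42.8% with TRAIL. No stimulated library overlapped with another group in this ratio.

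The genes of H2-M parted. H2-DMb1 (beta chain, ENSMUSG00000079547, chr17:34153072-34160230) was at 77.2, 87.3 and 76.3 TPM in medium, at 13.0, 12.1 and 10.9 TPM after stimulation, and at 52.5, 49.1 and 47.1 TPM with TRAIL. H2-DMb2 (beta chain, ENSMUSG00000037548, chr17:34143307-34151555) was at 238, 239 and 244 TPM, at 24.2, 26.9 and 24.4 TPM, and at 122, 129.7 and 112 TPM in the same order. Both beta chain genes kept the 3 groups apart, with log2 fold changes of -2.65 (SE 0.10) and -3.20 (SE 0.09) after stimulation. H2-DMa (alpha chain, ENSMUSG00000037649, chr17:34119541-34139101) was at 84.1, 106.9 and 90.3 TPM in medium, at 74.7, 89.1 and 65.1 TPM after stimulation, and at 71.2, 69.6 and 61.9 TPM with TRAIL. Its stimulated libraries overlapped with both other groups, and its log2 fold change after stimulation was -0.30 (SE 0.13). The ratio of H2-DMa to the sum of its beta chains was accordingly 0.292 ± 0.0318 in medium, 2.05 ± 0.224 in stimulated cells and 0.395 ± 0.0106 with TRAIL (SD, n = 3).

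The annotation limits how closely the H2-M genes can be read. H2-DMa has coding transcripts that start at positions 34122832, 34135628 and 34135654, beside noncoding transcripts, and its exons share 360 of 3448 bases (10.4%) with those of Brd2 on the opposite strand, a chromatin reader gene at 374 ± 40.7 TPM in medium, 197 ± 24.0 TPM in stimulated and 342 ± 28.6 TPM in TRAIL-treated cells. Whether the counting used strand is not given in the sources used here, so reads from this overlap cannot be told apart, and its part in the H2-DMa values was not tested. H2-DMb1 and H2-DMb2 are near copies: of the stretches of 31 bases in their transcripts, 517 were common to both, or 37.6% of those of H2-DMb1 and 29.7% of those of H2-DMb2. Reads from these stretches may have been divided between the pair, so the ratio of H2-DMb2 to H2-DMb1, which was 3.00 ± 0.242 in medium, 2.11 ± 0.214 in stimulated and 2.45 ± 0.164 in TRAIL-treated cells, is uncertain. Other pairs of the 10 genes shared at most 7 such stretches.

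H2-Ob (beta chain of H2-O, ENSMUSG00000041538, chr17:34238903-34254414) showed the steepest fall of the 10 genes. It was at 304, 284 and 289 TPM in medium, at 9.33, 10.8 and 9.19 TPM after stimulation, and at 165, 168 and 145 TPM with TRAIL. The stimulated mean was 29.9-fold below medium, and the TRAIL-treated mean was 16.3-fold above the stimulated mean. H2-Oa (alpha chain, ENSMUSG00000024334, chr17:34092340-34095234) was at 106.6, 85.4 and 101 TPM in medium, at 8.26, 5.78 and 5.19 TPM after stimulation, and at 49.6, 51.2 and 50.4 TPM with TRAIL, again without overlap. The ratio of H2-Ob to H2-Oa was 3.02 ± 0.274 in medium, 1.59 ± 0.405 in stimulated and 3.17 ± 0.247 in TRAIL-treated cells (SD, n = 3), so the chains of the inhibitor did not fall in proportion. The exons of H2-Oa share 321 of 1407 bases (22.8%) with the antisense gene BC051537, which was at 1.97 ± 0.275 TPM in medium and below that in the other groups.

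Ciita (ENSMUSG00000022504, chr16:10480059-10528418), the transactivator, was the least abundant of the 10 genes, and its range overlapped with that of H2-Oa after stimulation. It was at 61.7, 75.5 and 65.5 TPM in medium, at 3.43, 6.21 and 4.58 TPM after stimulation, and at 32.9, 29.1 and 25.5 TPM with TRAIL. The groups did not overlap, with 7.01% of the medium mean left after stimulation and 43.1% with TRAIL, the lowest share among the 10 genes in TRAIL-treated cells. Its exons share 329 of 9535 bases (3.45%) with Dexi on the opposite strand, which was at 19.3 ± 2.44 TPM in medium, 16.8 ± 1.93 TPM in stimulated and 14.4 ± 2.06 TPM in TRAIL-treated cells, above Ciita in the stimulated group, and the part of such reads in the Ciita values was not tested. The log2 fold change of Ciita was -3.60 (SE 0.18) after stimulation and 2.41 (SE 0.18) for TRAIL-treated against stimulated cells.

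**Figure D2:**
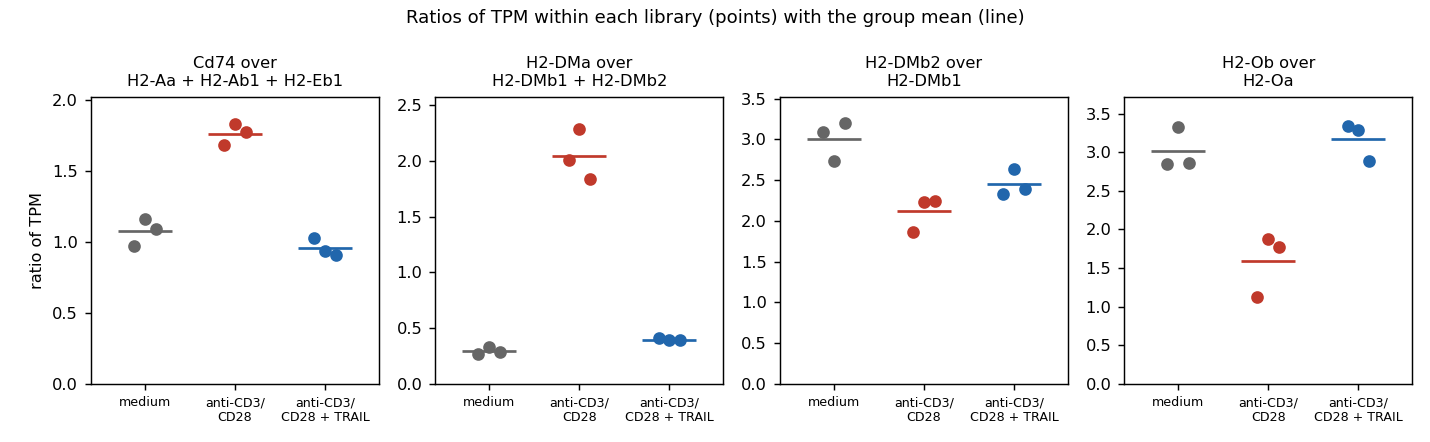
Ratios of TPM within each library (points) with the group mean (line) for Cd74 over the class II chains, H2-DMa over the H2-DMb genes, H2-DMb2 over H2-DMb1 and H2-Ob over H2-Oa. The stimulated libraries stand apart from both other groups in all 4 ratios, upward in the first pair and downward in the last pair.

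Against medium, 9 of the 10 genes were called lower after stimulation, beside 19.5% of all genes tested, and the same 9 had no overlap between libraries, beside 42.6% of all genes. Their median log2 fold change was -3.25 over the 10 genes, with -0.15 over all genes tested. The values spread from -4.77 for H2-Ob and -3.75 for H2-Oa to -2.51 for Cd74 and -0.30 for H2-DMa. Since the genes were chosen from this contrast, nothing is read from these shares.

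TRAIL-treated against stimulated cells gave the opposite direction, with 9 of the 10 genes called higher, beside 16.6% of all genes, and with the same 9 higher without overlap, beside 35.5%, and a median log2 fold change of 2.34, beside 0.01. H2-Ob differed most (3.90, SE 0.10), then H2-Oa (2.82, SE 0.15), H2-Aa (2.70, SE 0.14) and H2-Eb1 (2.66, SE 0.10). Cd74 differed least among those called (1.61, SE 0.11), and H2-DMa had a value of -0.16 with overlapping libraries. This contrast was known at the choice of genes as well.

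TRAIL-treated cells did not reach the medium level in any of the 10 genes. Every TRAIL-treated library was below every medium library for 10 of 10 genes, beside 38.2% of all genes tested that were lower without overlap. Ciita alone was called lower, with a log2 fold change of -1.19 (SE 0.18), beside 2.13% of all genes called lower and 4.62% called in either direction. H2-DMb2 (-0.98, SE 0.09) and H2-Oa (-0.94, SE 0.15) were just short of the required size, and H2-DMa (-0.46, SE 0.13) was the nearest to medium. The means were 43.1 to 72.1% of the medium means, and the median log2 fold change was -0.88, beside -0.18 over all genes.

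**Figure D3:**
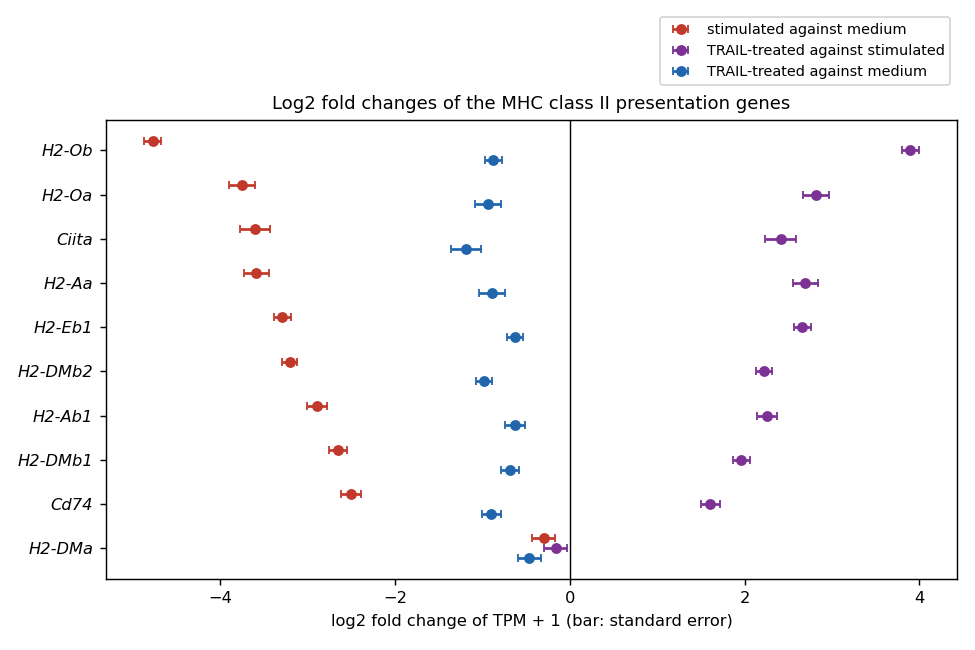
Log2 fold changes of TPM + 1 of the 10 class II genes (points) with standard errors (bars), ordered by the fall after stimulation, for stimulated against medium, TRAIL-treated against stimulated and TRAIL-treated against medium. H2-Ob has the largest values in the first and second comparison, at -4.77 and 3.90, and the 3 values of H2-DMa lie close together between -0.46 and -0.16.

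The order of the genes by level changed with stimulation. In medium the order from the top was Cd74, H2-Ab1 with H2-Aa, H2-Eb1, H2-Ob, H2-DMb2, then H2-Oa with H2-DMa and H2-DMb1, and Ciita last, where genes joined by "with" had overlapping library ranges. After stimulation H2-DMa stood level with H2-Aa and H2-Eb1, and H2-Ob had dropped below both H2-DMb genes. The TRAIL-treated order was that of medium with H2-Aa apart from H2-Ab1 and with H2-DMa above H2-Oa.

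Most markers of the cells that make class II molecules were lower after stimulation as well. The shares of all genes tested beside the counts that follow are 19.5% called lower and 12.4% called higher after stimulation, 16.6% higher and 14.3% lower with TRAIL against stimulated cells, and 2.13% lower and 2.49% higher with TRAIL against medium. Of the 10 B cell markers, 10 were called lower after stimulation, 9 were called higher with TRAIL against stimulated cells, and 7 were called lower with TRAIL against medium. Their summed level was 198 to 219 TPM in stimulated and 997 to 1132 TPM in TRAIL-treated libraries, or 8.36% and 43.6% of the medium mean. The marker Cd79a, a part of the B cell receptor, was at 504, 593 and 568 TPM in medium, at 21.8, 25.7 and 22.2 TPM after stimulation, and at 277, 276 and 251 TPM with TRAIL. All 10 macrophage and monocyte markers were called lower after stimulation and higher with TRAIL against stimulated cells, and none differed with a call from medium in TRAIL-treated cells. Their sum was 35.1 to 40.2 TPM in stimulated libraries, 2.11% of the medium mean, and 1410 to 1588 TPM with TRAIL. Of 8 dendritic cell markers, 6 were called lower after stimulation, 4 were called higher and 1 lower with TRAIL against stimulated cells, and none was called with TRAIL against medium. Their sum was 63.1 to 67.9 TPM in medium, 10.5 to 13.9 TPM after stimulation and 38.5 to 42.7 TPM with TRAIL. The dendritic cell marker Cd209a was at 0.0001 TPM in 2 of the 3 stimulated libraries and Xcr1 in 1 of them, while Zbtb46, in the same list, was lowest with TRAIL and highest after stimulation. T cell markers had 1 of 10 called in each direction after stimulation and none in the comparisons with TRAIL. What part these cells had in the class II values was not tested.

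Ratios of the class II sum to these marker sums differed between groups. Against the B cell marker sum, the class II sum was 2.79 ± 0.149 in medium, 4.81 ± 0.333 in stimulated and 3.63 ± 0.156 in TRAIL-treated cells (SD, n = 3). Against the macrophage and monocyte sum it was 3.89 ± 0.268, 26.5 ± 0.970 and 2.57 ± 0.195. Against the dendritic cell sum the values of 101.8 to 109.5 in medium, 65.4 to 97.4 after stimulation and 94.7 to 101.4 with TRAIL lay closer together. Zbtb46, which rose, was at 5.04, 5.93 and 6.60 TPM in stimulated libraries with dendritic cell sums of 10.5, 13.1 and 13.9 TPM. In medium it was at 2.29 to 2.56 TPM, with sums of 63.1 to 67.9 TPM. The ratio without Zbtb46 was not tested, so its closeness and direction cannot be read for the other dendritic cell markers. The ratio of H2-Ob to the B cell gene Cd79a was 0.531 ± 0.0649 in medium, 0.421 ± 0.00665 in stimulated and 0.595 ± 0.0155 in TRAIL-treated cells. With 3 libraries against 3, an exact permutation test of such a ratio cannot give a two-sided p below 0.1, and none was run. Sums of the other lists also were lowest after stimulation for NK cells (5.04 to 6.85 TPM, against 58.4 to 74.2 TPM in medium and 14.7 to 17.6 TPM with TRAIL), neutrophils (25.7 to 41.8, 518 to 833 and 338 to 441 TPM) and erythroid cells (13.8 to 23.7, 1125 to 1379 and 317 to 367 TPM), with Retnlg of the neutrophil list at 0.0001 TPM in all 3 stimulated libraries. The CD8 T cell sum was 94.2 to 104.6 TPM after stimulation, 110.0 to 117.8 TPM in medium and lowest with TRAIL, at 46.9 to 49.4 TPM.

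**Figure D4:**
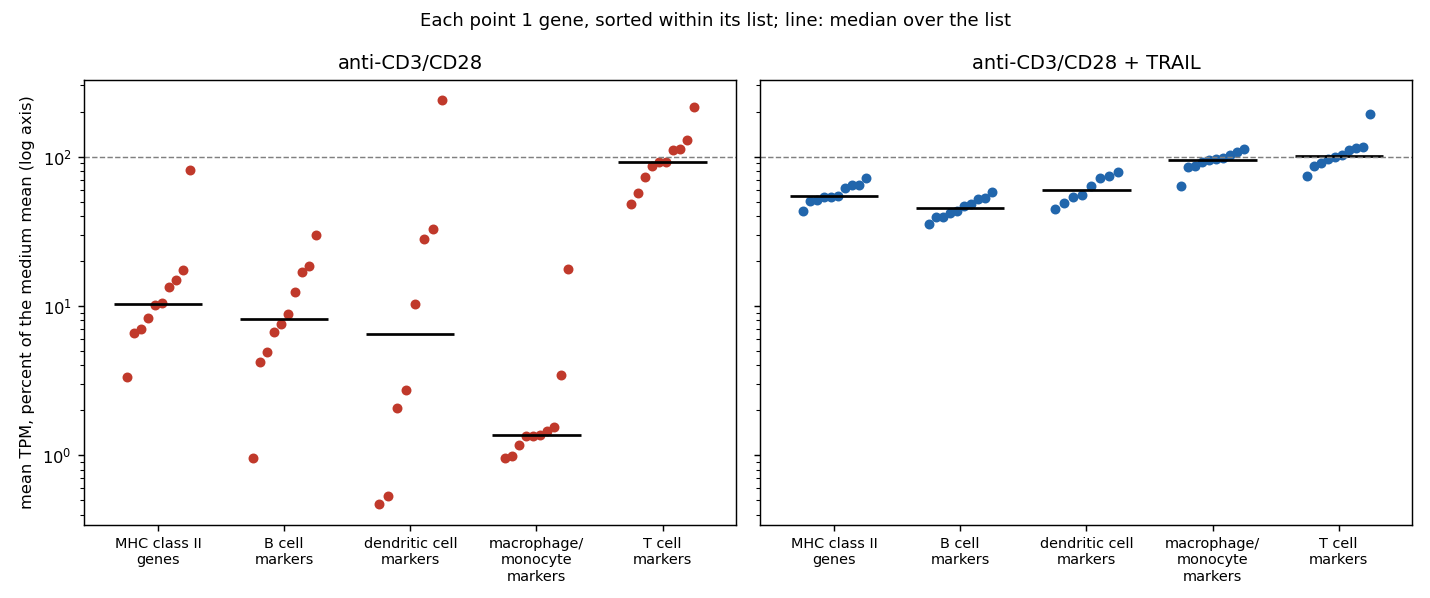
Mean TPM of each gene in percent of its medium mean, on a log axis, for the class II genes and the markers of B cells, dendritic cells, macrophages and monocytes, and T cells, after stimulation (left) and after stimulation with TRAIL (right). Each point is a gene and the line is the median of its list; the class II genes lie at 3.34 to 81.3% on the left and 43.1 to 72.1% on the right, and their median is between those of the B cell and T cell markers in both panels.

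The genes most alike in pattern were sought among 9578 other genes whose mean was 10 TPM or more, by the root mean square difference over the 9 libraries between a gene's centred log2(TPM + 1) and the mean of the 10 class II genes. The 10 nearest were Ighm (0.0926), Hvcn1 (0.0927), Igkv6-25 (0.103), Igkv12-46 (0.114), Cd36 (0.137), Rubcnl (0.142), Clec4a1 (0.142), Aldh3b1 (0.143), Igkc (0.145) and Bcl11a (0.147). Ighm, the heavy chain of IgM, was at 4039 ± 269 TPM in medium, 544 ± 24.4 TPM in stimulated and 2341 ± 210 TPM in TRAIL-treated cells. Cd36, a scavenger receptor gene, was at 20.2 ± 1.91, 1.34 ± 0.320 and 11.4 ± 0.676 TPM. By the same measure the class II genes themselves lay between 0.0922 for H2-DMb2 and 0.798 for H2-Ob, and H2-DMa at 1.23 was the farthest.

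The other genes of the class II pathway were a list of 31 genes in the table, of which 30 were tested and H2-Ea did not pass the filter. After stimulation 5 of the 30 were called higher and 11 lower, beside 12.4% and 19.5% of all genes. TRAIL-treated against stimulated cells had 10 called higher and 6 lower, beside 16.6% and 14.3%, and TRAIL-treated cells against medium 2 higher and 3 lower, beside 2.49% and 2.13%. Calls are from limma with adjustment over all genes. H2-Eb2, a further beta chain gene of the locus, was at 24.2, 25.1 and 24.8 TPM in medium, at 1.19, 0.802 and 1.01 TPM after stimulation, and at 11.8, 11.7 and 11.2 TPM with TRAIL. It fell by 3.69 on the log2 scale (SE 0.11, adjusted p = 1.73e-09) and was 2.66 higher with TRAIL against stimulated cells (adjusted p = 1.56e-08). Against medium it was called lower with TRAIL, at -1.03 (SE 0.11, adjusted p = 0.000128), where H2-Aa (-0.89), H2-Ab1 (-0.63) and H2-Eb1 (-0.63) were not called. This call was lost under 3 alternatives, namely a pseudocount of 5, median-of-ratios scaling and quantile normalization, and the value nearest to 0 was -0.84.

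Of the 7 genes of the complex that sits on class II promoters, none was called higher and 2 were called lower after stimulation, beside 12.4% and 19.5% of all genes tested. Rfx5, an X box factor, went from 54.1 ± 5.27 to 19.5 ± 4.49 TPM, with a log2 fold change of -1.45 (SE 0.16, adjusted p = 2.16e-05), and was at 31.9 ± 2.81 TPM with TRAIL. Creb1 went from 69.5 ± 3.80 to 33.9 ± 4.71 TPM, a log2 fold change of -1.02 (SE 0.12, adjusted p = 2.43e-05). Its call was lost under 5 alternatives, among them leaving out medium replicate 1 or stimulated replicate 1, and the value nearest to 0 was -0.84. The Y box subunits Nfya, Nfyb and Nfyc had values of 0.04, 0.29 and -0.47 after stimulation and were not called in any comparison. With TRAIL, none of the 7 genes was called against either group, beside 30.9% of all genes called in either direction against stimulated cells and 4.62% against medium.

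The regulators of Ciita went in both directions. Pax5, a B cell factor and also one of the B cell markers above, fell from 116 ± 15.4 to 19.6 ± 5.69 TPM (log2 fold change -2.53, SE 0.20, adjusted p = 1.65e-06) and was at 61.2 ± 7.59 TPM with TRAIL. Spi1, which encodes the factor PU.1 of myeloid and B cells, fell from 49.5 ± 6.32 to 13.7 ± 1.70 TPM (-1.78, SE 0.15, adjusted p = 2.28e-06) and was at 29.6 ± 4.52 TPM with TRAIL. The TRAIL-treated level of Spi1 was 1.05 above the stimulated level (SE 0.15, adjusted p = 0.000114), but the call was lost under 4 alternatives, among them leaving out stimulated replicate 3, TRAIL-treated replicate 1 or TRAIL-treated replicate 2, and the value nearest to 0 was 0.88.

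Irf4 and Irf8 took the other course. Irf4, which is induced by TCR signals, was at 55.6, 61.5 and 54.6 TPM in medium, at 578, 794 and 830 TPM after stimulation, and at 166, 189 and 195 TPM with TRAIL. The groups did not overlap, and it rose by 3.64 (SE 0.14, adjusted p = 7.74e-09), with a log2 fold change of -1.98 for TRAIL-treated against stimulated cells (adjusted p = 6.53e-07). Irf8 rose from 138 ± 10.8 to 358 ± 45 TPM (1.36, SE 0.11, adjusted p = 2.14e-06) and was at 86.5 ± 5.09 TPM with TRAIL, below both other groups. Prdm1, which encodes the Ciita repressor BLIMP-1, was at 6.35 ± 0.872, 14.1 ± 3.61 and 6.24 ± 0.737 TPM, with a rise of 1.02 (adjusted p = 0.000499). This call was lost under 4 alternatives, among them leaving out medium replicate 1, medium replicate 3 or stimulated replicate 2, and the value nearest to 0 was 0.74.

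Of 7 genes of proteases and a reductase that process antigen and the invariant chain, 4 were called lower after stimulation, 5 were called higher with TRAIL against stimulated cells, and none was called with TRAIL against medium, beside 19.5%, 16.6% and 4.62% of all genes. Ctss, the protease of the last step of invariant chain degradation in B cells and dendritic cells, was at 544, 457 and 530 TPM in medium, at 155, 149 and 143 TPM after stimulation, and at 394, 408 and 461 TPM with TRAIL. It fell by 1.77 (SE 0.10, adjusted p = 1.32e-07), and its TRAIL-treated libraries overlapped with medium. Lgmn, asparagine endopeptidase, fell from 141 ± 15.2 to 21.0 ± 0.792 TPM (-2.68, SE 0.10, adjusted p = 6.19e-09) and was at 115 ± 5.81 TPM with TRAIL. Ctsb was at 242 ± 27.1, 57.8 ± 0.287 and 240 ± 13.6 TPM in the same order. Ctsl was 1.96 higher with TRAIL than in stimulated cells (SE 0.13, adjusted p = 4.48e-07), at 32 ± 4.97 against 7.45 ± 0.833 TPM, with 15.8 ± 0.739 TPM in medium. It just missed a call against medium, at -0.99 after stimulation and 0.97 with TRAIL, and had one under 4 alternatives in the former comparison, among them leaving out medium replicate 2, stimulated replicate 2 or stimulated replicate 3, and under 5 in the latter, among them leaving out TRAIL-treated replicate 1 or 2. Ifi30, a thiol reductase, and Sppl2a, which cleaves the last Cd74 fragment from the membrane, had log2 fold changes of -0.60 and -0.55 after stimulation and were not called.

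Among genes of surface turnover, Marchf1, the ubiquitin ligase that removes class II molecules from the surface of B cells and dendritic cells, was at 86.6, 74.4 and 81.5 TPM in medium, at 1.91, 2.28 and 2.30 TPM after stimulation, and at 34.9, 35.8 and 32.7 TPM with TRAIL. It fell by 4.69 (SE 0.10, adjusted p = 2.96e-10), and its size was close to that of H2-Ob. Cd83, which opposes this removal, was not called after stimulation (log2 fold change 0.27) but was higher with TRAIL, at 185 ± 28.7 TPM against 84.3 ± 8.56 TPM in stimulated cells (1.12, SE 0.14, adjusted p = 4.16e-05) and 69.9 ± 8.16 TPM in medium (1.39, adjusted p = 8.35e-05). The costimulatory gene Cd40 was at 47.9 ± 5.75 TPM in stimulated and 15.9 ± 1.27 TPM in TRAIL-treated cells (-1.53, SE 0.13, adjusted p = 3.16e-06), and Cd86 was not called in any comparison. Lag3, an inhibitory receptor of T cells that binds class II molecules, was at 11.8, 16.3 and 12.3 TPM in medium, at 354, 373 and 381 TPM after stimulation, and at 12.9, 11.9 and 11.2 TPM with TRAIL. It rose by 4.69 (SE 0.12, adjusted p = 8.77e-10), and its TRAIL-treated libraries overlapped with medium. Cd4, the coreceptor for class II molecules, was not called in any comparison, with a log2 fold change of -0.81 after stimulation, although quantile normalization gave a call at -1.0.

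**Figure D5:**
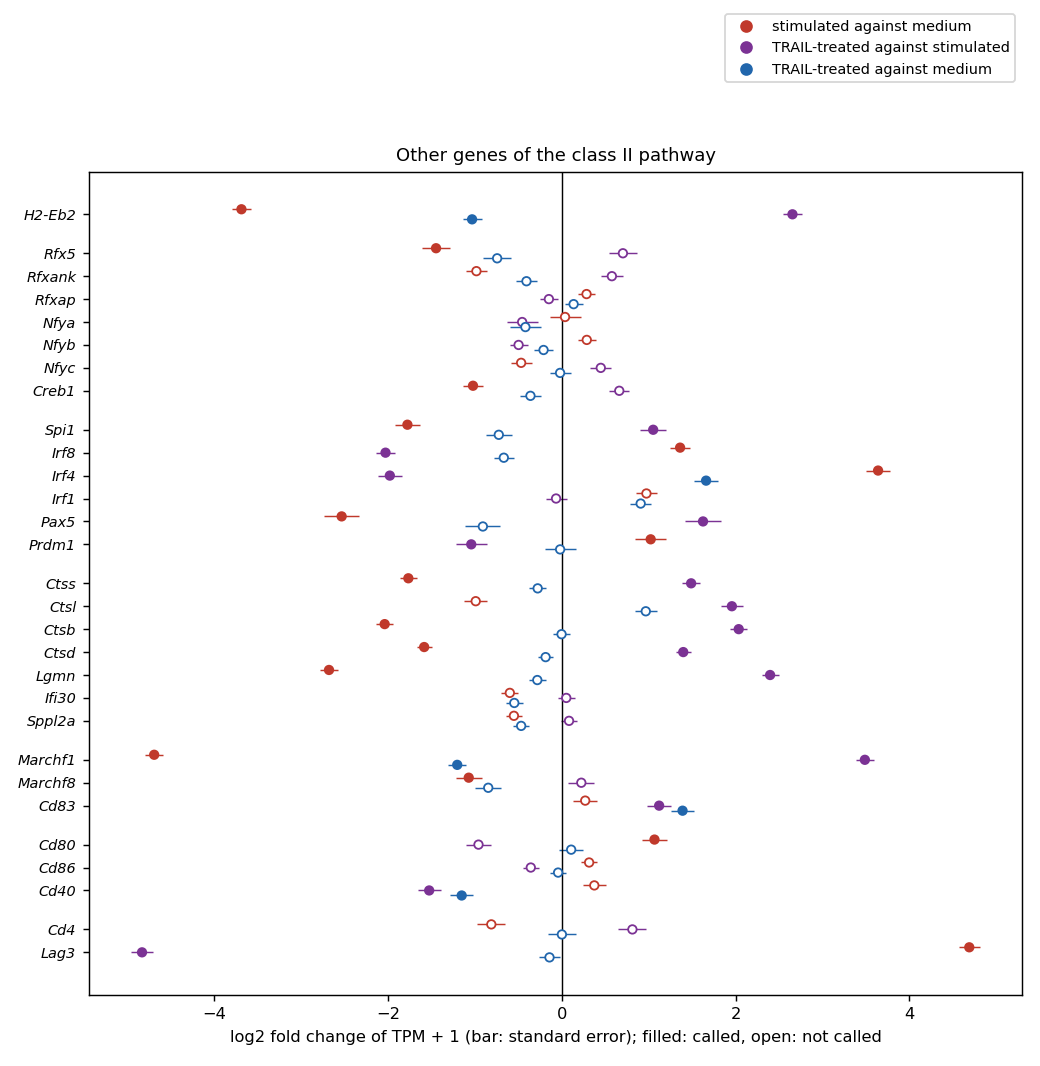
Log2 fold changes of TPM + 1 (points) with standard errors (bars) of other class II pathway genes tested, grouped by role, for stimulated against medium, TRAIL-treated against stimulated and TRAIL-treated against medium. Filled points are called and open points are not; Marchf1 at -4.69 and Lag3 at 4.69 are the extremes after stimulation.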

How the data were processed

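RNA-seq was measured in 9 libraries of CD4+ T cells in 3 groups of 3, grouped by the sample labels. The authors trimmed reads with Trimmomatic 0.36 and aligned them with HISAT2 2.1.0. Their methods give DESeq2 as the tool that normalized feature counts, and the processing notes also name SAMtools 1.2 and StringTie 2.1.2, with no role given. The build is GRCm38 in the study's methods, and the loci in the table are those of GRCm38 for all 10 genes. Per-gene TPM values are what the authors deposited, and the program and the strand setting behind them are not given in the sources used here. An entry of 0.0001 TPM, the lowest listed, can be a failed estimate. All columns were used.

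All further steps started from these values. Genes that reached 1 TPM in 3 or more libraries were fitted on the log2(TPM + 1) scale with limma 3.58.1 in R 4.3.3, using lmFit and a trended eBayes, with all 9 libraries together and no replicate block. Fold changes on this scale understate the change of low genes. A gene was called at an adjusted p (Benjamini-Hochberg) under 0.05 with a log2 fold change of 1 or more in either direction. Tables and figures used Python 3.11.15, pandas 2.3.3, numpy 2.4.6 and matplotlib 3.10.9. RefSeq promoter windows (GRCm38.p6) and GENCODE M21 were used for sequences and loci.

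The 10 genes, the pathway list and the marker lists were chosen with earlier results of these data known. All 10 genes are named, any pathway gene that passed the filter may be named, and the nearest genes are the 10 with the smallest difference. Pathway genes H2-Ea and, for its ratio to H2-Ob, the B cell marker Cd79a were named outside this rule, after their values were seen, as were Brd2, BC051537 and Dexi for their overlaps and Cd209a, Xcr1, Zbtb46 and Retnlg among the markers. Alternatives varied the pseudocount, filter, scaling, variance trend, libraries in the fit, replicate block and fold threshold, and left out each library in turn. The values of some genes of the lists are not reported here, although the counts and sums over the lists include them.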

Additional observations from a re-analysis of the deposited data

How the results depend on the processing

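Under each of the 19 alternatives, 9 class II genes were called lower after stimulation and 9 higher with TRAIL against stimulated cells, and no fold change of these genes reversed. Against medium, TRAIL-treated cells had 1 call among them, that of Ciita, and a second with quantile normalization (H2-Aa), without medium replicate 2 (H2-Oa) or without TRAIL-treated replicate 2 (H2-DMb2). Without a fold threshold all 10 were called lower in this comparison. Their median log2 fold change after stimulation was -3.25, and -2.96 with a pseudocount of 5 and -3.06 with median-of-ratios scaling. For TRAIL-treated against stimulated cells it was 2.34, with 2.45 and 2.15 for pseudocounts of 0.1 and 5 and 2.23 to 2.46 without each library, the ends being those without stimulated replicates 1 and 2. For TRAIL-treated cells against medium it was -0.88, and -0.71 with median-of-ratios scaling.

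Counts of called genes depended most on the fold threshold and the pseudocount. After stimulation 4959 genes were called, 2946 with a pseudocount of 5 and 10678 without a fold threshold. TRAIL-treated against stimulated cells gave 4800, 2883 and 10420 in the same order, and TRAIL-treated cells against medium gave 718, 332 and 5063, with 1167 at a pseudocount of 0.1. Without a fold threshold, 27, 25 and 17 pathway genes were called in the 3 comparisons, in place of 16, 16 and 5, and a pseudocount of 5 left 3 in the last. Higher calls made up 38.8% after stimulation, 48.9% with median-of-ratios scaling and 50.2% with quantile normalization, and 53.9%, 73.0% and 70.6% for TRAIL-treated cells against medium. These scalings moved the median of all genes from -0.15 to 0.02 after stimulation in both cases. Calls of Rfxank, Irf1, Marchf8, Cd80 and Cd40, beside those described above, were gained or lost under 1 to 5 alternatives each in at least 1 comparison.

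No pathway gene with a call in either setting changed direction, but 30 values close to 0 and without a call did. Without each library in turn, log2 fold changes ranged from -0.14 to 0.24 for Nfya after stimulation, and from -0.16 to 0.042 for Irf1 and -0.00046 to 0.12 for Ifi30 with TRAIL against stimulated cells. With TRAIL against medium they ranged from -0.086 to 0.062 for Nfyc, -0.070 to 0.076 for Prdm1, -0.059 to 0.087 for Ctsb, -0.017 to 0.21 for Cd80, -0.10 to 0.011 for Cd86 and -0.073 to 0.10 for Cd4. Median-of-ratios scaling gave 0.15 for Nfyc, 0.13 for Prdm1, 0.17 for Ctsb, 0.12 for Cd86 and 0.017 for Lag3 in that comparison, and quantile normalization 0.11, 0.16, 0.0095, 0.12 and 0.055, with -0.021 for Cd4. Quantile normalization also gave 0.036 for Irf1 and -0.013 for Marchf8 with TRAIL against stimulated cells.

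With the replicate number as a block, 4960, 4802 and 714 genes and 16, 16 and 5 pathway genes were called, and no class II gene changed its call. Libraries with the same number had correlations of -0.306 to 0.295 in their deviations, and those with different numbers -0.379 to 0.289. These ranges are alike and do not show whether the numbers pair the libraries. TPM keeps no depth, so counting error is unknown.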
